A study of Mus musculus with 37 samples.

Results

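The genes described here are 44 genes of mitosis, chosen by name for their known role in cell division, with earlier results of these data known and with no measured value in the rule. All 44 were in the table of mouse cardiac fibroblasts (CFs), among 30892 genes, and in both single-cell tables, among 31053 genes. In the table of neonatal rat ventricular myocytes (NRVMs) 43 were present among 20158 genes, with Kif4 listed as Kif4a and Ccnb2 not analysed there. They fall into 11 roles: cyclins, CDK1 and its activators (6 genes), mitotic kinases (3), the chromosomal passenger complex (3), the spindle checkpoint (4), anaphase and mitotic exit (3), the centromere and kinetochore (5), kinesins (6), spindle assembly (8), cytokinesis (3), chromosome structure (2) and the transcription factor Foxm1.

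The study asked how the ectonucleotidase ENPP1, an enzyme that cleaves extracellular ATP to AMP, shapes the signals that injured heart muscle cells send to other cells. Immortalized wild type C57BL/6 CFs, which the study immortalized with an SV40 antigen, were kept without serum for 24 h and then grown for 24 or 48 h in medium that had been conditioned by NRVMs given vehicle, recombinant ENPP1, ATP, ENPP1+ATP or AMP, with 2 libraries for each of the 5 media and 2 times (20 in all). Wild type Sprague-Dawley NRVMs, a primary culture, were given the same 5 media for 24 h, with 3 libraries each (15 in all). Nonmyocytes of injured hearts at day 7 after myocardial infarction were sequenced as single cells from 1 control and 1 ENPP1CKO library, in which Col1a2CreERT deletes floxed ENPP1 in Col1a2-expressing cells under tamoxifen, given from 5 days before to 7 days after injury. The number of hearts in each of these libraries is not given in the sources used here. The study counts its replicates as biological, and the labels do not say whether bulk libraries of a group came from separate cultures, so p-values measure the spread between these libraries.

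Entry into mitosis is driven by CDK1 bound to cyclin B, which CDC25 phosphatases activate and the kinases PLK1 and Aurora A reinforce. The spindle checkpoint (BUB1, BUBR1, MAD2, TTK) holds CDC20 back until every kinetochore is attached, after which the anaphase-promoting complex with UBE2C and CDC20 marks cyclin B and securin for destruction. Most of these genes are transcribed late in the cycle. FOXM1 and B-MYB with the MuvB complex activate them in G2, and the DREAM complex (MuvB with p130 or p107) represses them in quiescence and after p53 and p21 activation, through a promoter element called CHR (cell cycle genes homology region) and through CCAAT boxes bound by NF-Y.

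The 250 bases before the RefSeq start of transcription (build GRCm38.p6, the assembly also called mm10) could be matched for 38 of the 44 genes. Aurkb, Foxm1, Dlgap5, Kif20a, Tpx2 and Cdc25c had no entry. CHR letters (TTTGAA, or alternatively the letters TTCGAA, on either strand) were in 12 of the 38 windows (31.6%), against 17.4% of the 27025 windows of all genes. CCAAT (either strand) was in 27 (71.1%), against 34.5%, and 2 or more CCAAT were in 19 (50%), against 10.5%. Both kinds were in 11 windows (28.9%), against 6.21%. These matches are a description of letters and not of bound sites. The 6 windows that follow are shown because these genes carry the results: Gtse1, Ckap2 and Mki67 had the largest rises in CFs at 24 h with ENPP1+ATP and with AMP, Cdk1 and Ccnb1 had small rises, and the rise of Cdc20 was larger at 48 h than at 24 h. Capitals mark the CHR letters and CCAAT on the strand shown, and ATTGG where CCAAT lies on the other strand. All are 5′ to 3′ on the strand of the gene and end at the base before its start. Gtse1 is at chr15:85859457-85859706 (plus strand, the first of 2 listed starts), Ckap2 at chr8:22185820-22186069 (minus), Mki67 at chr7:135716380-135716629 (minus), Cdk1 at chr10:69352913-69353162 (minus), Ccnb1 at chr13:100786487-100786736 (minus) and Cdc20 at chr4:118437344-118437593 (minus).
Gtse1: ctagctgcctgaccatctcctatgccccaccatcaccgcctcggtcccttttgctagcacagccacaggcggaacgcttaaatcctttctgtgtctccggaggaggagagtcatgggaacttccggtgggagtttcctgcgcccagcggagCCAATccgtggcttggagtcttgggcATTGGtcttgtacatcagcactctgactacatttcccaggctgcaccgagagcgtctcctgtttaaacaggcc
Ckap2: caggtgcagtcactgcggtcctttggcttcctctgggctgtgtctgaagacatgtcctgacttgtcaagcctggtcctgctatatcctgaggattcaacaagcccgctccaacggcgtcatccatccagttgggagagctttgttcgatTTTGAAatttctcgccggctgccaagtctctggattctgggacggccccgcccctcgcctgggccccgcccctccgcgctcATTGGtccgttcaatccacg
Mki67: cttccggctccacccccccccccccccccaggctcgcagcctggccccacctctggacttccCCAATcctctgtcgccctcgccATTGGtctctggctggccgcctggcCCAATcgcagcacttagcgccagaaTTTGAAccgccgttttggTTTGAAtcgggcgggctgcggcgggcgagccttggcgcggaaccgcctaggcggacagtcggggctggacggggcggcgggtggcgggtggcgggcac
Cdk1: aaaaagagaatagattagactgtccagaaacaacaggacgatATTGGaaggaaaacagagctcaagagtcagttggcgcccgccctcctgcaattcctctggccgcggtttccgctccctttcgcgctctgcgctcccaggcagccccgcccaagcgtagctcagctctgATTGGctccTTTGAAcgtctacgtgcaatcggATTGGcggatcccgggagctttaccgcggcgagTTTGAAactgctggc
Ccnb1: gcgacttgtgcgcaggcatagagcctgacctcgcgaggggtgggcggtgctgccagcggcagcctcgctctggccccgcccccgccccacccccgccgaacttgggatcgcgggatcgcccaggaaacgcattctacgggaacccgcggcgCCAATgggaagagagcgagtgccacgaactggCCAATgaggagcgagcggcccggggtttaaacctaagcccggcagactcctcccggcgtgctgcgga
Cdc20: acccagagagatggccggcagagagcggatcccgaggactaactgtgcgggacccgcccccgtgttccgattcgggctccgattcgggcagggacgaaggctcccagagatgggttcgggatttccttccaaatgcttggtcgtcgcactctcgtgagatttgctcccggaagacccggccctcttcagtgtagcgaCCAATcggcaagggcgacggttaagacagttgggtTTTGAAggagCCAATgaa

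The Gtse1 window held CCAAT letters that begin 99 and 73 bases before the start, and no CHR letters. Ccnb1 likewise held 2 CCAAT, at 99 and 67 bases, and no CHR letters. Cdk1 held TTTGAA at 71 and 15 bases, Mki67 at 116 and 98, Ckap2 at 101 and Cdc20 at 18 bases before the start, each with 1 to 3 CCAAT. CHR letters were in windows of genes with large rises (Mki67, Ckap2) and with a small one (Cdk1), and absent from those of Gtse1 and Ccnb1.

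CF libraries held 32184800 to 115825000 counts and NRVM libraries 13481400 to 16978000 counts. All 44 genes in CFs and all 43 in NRVMs passed the filter on low counts, among 17879 and 13461 genes tested. Levels are given as CPM, the counts of a gene scaled to the same library total, and changes as log2 fold changes with their standard errors from edgeR's quasi-likelihood test. A gene is said to rise or fall where the adjusted p (Benjamini-Hochberg over all genes tested) was under 0.05. CPM are not corrected for gene length, so levels are compared between media and not between genes. In CF cultures 10 of 10 fibroblast markers were detected in every library. In bulk RNA, more cells in mitosis and more RNA per cell cannot be told apart.

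In CFs, mitosis genes rose together in the media conditioned by NRVMs that had been given AMP or ENPP1+ATP. The summed level of the 44 genes was 4762 to 4805 CPM in the vehicle libraries at 24 h, 4699.8 to 4773 CPM with ENPP1, 5303 to 5335 CPM with ATP, 9397 to 9721 CPM with ENPP1+ATP and 9439 to 10146 CPM with AMP. At 48 h it was 4503 to 4701 CPM with vehicle, 4667 to 4873 CPM with ENPP1, 4755 to 4842 CPM with ATP, 7204 to 7411 CPM with ENPP1+ATP and 7059 to 7084 CPM with AMP. The ENPP1+ATP and AMP libraries stood above every other library at both times and lay closer to vehicle at 48 h. The study reports that CFs died in these media. It also reports cell-cycle arrest at the entry to S phase in CFs given ENPP1+ATP medium. Whether more cells divided was not tested here. The part of cell loss in these levels, and in their change between the times, was not tested either.

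**Figure D1:**
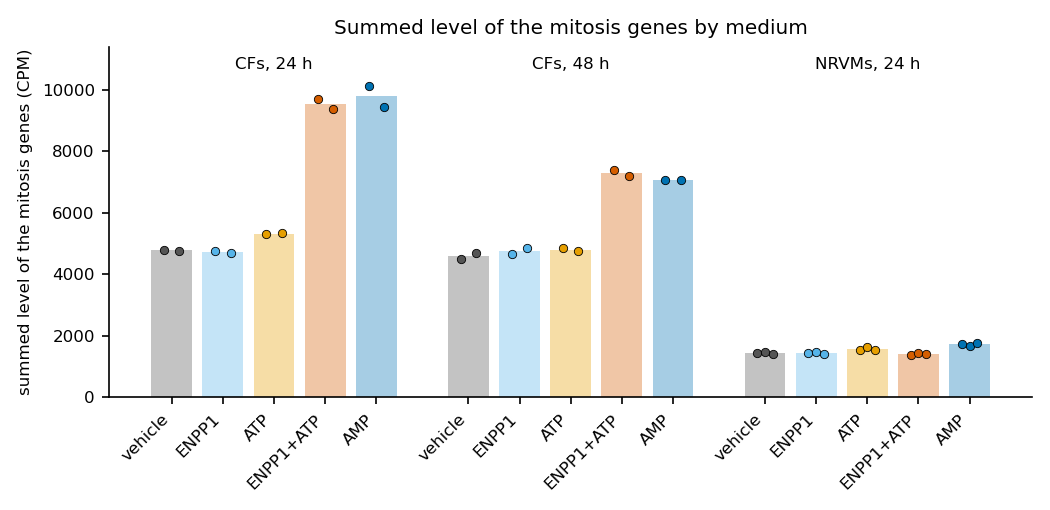
Summed level of the mitosis genes (CPM, vertical axis) for each medium in CFs at 24 h and 48 h (44 genes, 2 libraries per bar) and in NRVMs at 24 h (43 genes, 3 libraries per bar). Bars are group means and points are libraries. In CFs the ENPP1+ATP and AMP libraries lie between 9397 and 10146 CPM at 24 h and between 7059 and 7411 CPM at 48 h, above all others, and in NRVMs the media lie between 1365 and 1770.1 CPM.

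With ENPP1 medium none of the 44 genes passed the test. By edgeR no gene at 24 h was called (0% of all genes tested were), none had an unadjusted p under 0.05, and DESeq2 called none. At 48 h no gene was called either (0% of all genes), although 2 had an unadjusted p under 0.05, both higher, and DESeq2 called none. The largest log2 difference from vehicle at 24 h was 0.08 in size.

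With ENPP1+ATP at 24 h, 44 of 44 genes rose, in a comparison where 49.1% of all genes tested were called and 23.9% rose. The median log2 fold change was 0.80 (range 0.35 to 2.16), against -0.0046 over all genes tested. With AMP at 24 h, 44 of 44 also rose, where 52.8% of all genes were called and 25.3% rose, with a median of 0.85 (range 0.19 to 2.47), against -0.0058. Both comparisons use the same 2 vehicle libraries. Against ATP medium, in a comparison that uses the same ENPP1+ATP libraries, ENPP1+ATP was higher for 44 of 44 genes at 24 h (43.9% of all genes called, 21.8% higher).

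The spindle assembly genes held the steepest rise. Gtse1, a microtubule-tip protein that also restrains p53 in G2, stood at 84.8 and 83 CPM with vehicle, 85.3 and 82.2 with ENPP1, 148 and 147 with ATP, 370.3 and 379.9 with ENPP1+ATP and 471 and 458 with AMP at 24 h. The media with ATP, ENPP1+ATP and AMP each stood apart from vehicle with no overlap, in that order. Its log2 fold change was 2.16 ± 0.09 with ENPP1+ATP (edgeR adjusted p = 2.02e-12) and 2.47 ± 0.09 with AMP (edgeR adjusted p = 2.69e-13). Ckap2, a spindle-pole and microtubule-stabilizing protein, went from 91.6 and 94.1 CPM with vehicle to 127 and 127 with ATP, 234 and 234 with ENPP1+ATP and 267 and 257 with AMP (log2 1.34 ± 0.05 and 1.5 ± 0.05 for the last 2 media). The other 6 of this role, Tpx2, Nusap1, Hmmr, Ckap2l, Dlgap5 and Tacc3, rose with both media as well, and the role's median was 1.03 with ENPP1+ATP and 1.06 with AMP.

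Of the chromosome structure genes, Mki67, which coats mitotic chromosomes and marks cycling cells, stood at 416 and 389.7 CPM with vehicle and 396 and 412 with ATP. It reached 1699 and 1452 CPM with ENPP1+ATP (log2 1.97 ± 0.07, edgeR adjusted p = 7.96e-16) and 1676 and 1432 with AMP (log2 1.95 ± 0.07). The vehicle, ENPP1 and ATP libraries overlapped one another, and all 4 libraries of the last 2 media lay far above them. Top2a, the topoisomerase that untangles sister chromatids, went from 424 and 428 CPM to 870.04 and 829.8 with ENPP1+ATP (log2 1.00 ± 0.05) and 783 and 738 with AMP (log2 0.84 ± 0.05). Foxm1, the transcription factor that drives many of these genes, rose from 182 and 177 CPM to 399 and 374 with ENPP1+ATP and 406 and 390.1 with AMP (log2 1.11 ± 0.05 and 1.15 ± 0.05).

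Cdk1 had the smallest rise of the 44 genes with both media. It stood at 139.9 and 143 CPM with vehicle, 180.3 and 179 with ENPP1+ATP (log2 0.35 ± 0.05) and 156 and 167 with AMP (log2 0.19 ± 0.05, edgeR adjusted p = 0.0017). For the genes that follow, values after those of vehicle are for ENPP1+ATP and then for AMP. Its partner Ccnb1 went from 113 and 115 CPM to 144 and 162 (log2 0.43 ± 0.06) and 173 and 169.6 (log2 0.59 ± 0.06). The other 4 of the role, Ccna2, Ccnb2, Cdc25b and Cdc25c, rose with both media too, up to a log2 of 0.94 for Ccna2 with ENPP1+ATP and 1.03 for Ccnb2 with AMP. Among the kinases, Plk1 went from 95.9 and 87.8 CPM to 122 and 120.4 (log2 0.40 ± 0.05) and 144 and 136 (log2 0.60 ± 0.05), while Melk had log2 changes of 1.15 and 1.19 and Aurka of 0.73 and 1.07.

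Kinesins, the motors of the spindle, rose in 6 of 6 cases with both media, with medians of 0.88 and 0.92. Kif23, a motor of the central spindle, went from 52.8 and 51.9 CPM to 126 and 129 (log2 1.28 ± 0.06) and 141 and 135 (log2 1.39 ± 0.06), with the ENPP1 and ATP libraries between 52.3 and 57.6 CPM. Kif11, which pushes spindle poles apart, had log2 changes of 0.91 ± 0.04 and 0.80 ± 0.04. The kinetochore genes rose in 5 of 5 cases, led by Ndc80 (1.16 and 1.22) and with Cenpa, the centromeric histone, lowest (0.49 and 0.51).

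In the chromosomal passenger complex, Aurkb, its kinase, went from 57.5 and 56.1 CPM to 114 and 110.4 (log2 0.98 ± 0.05) and 105 and 104 (log2 0.88 ± 0.05). All 4 checkpoint genes rose, among them Bub1b, which encodes BUBR1 (100.04 and 98.6 CPM with vehicle, 145 and 147 with ENPP1+ATP and 145 and 141 with AMP, log2 0.55 ± 0.04 and 0.53 ± 0.04). Cdc20, the activator of the anaphase-promoting complex, went from 90.8 and 88.8 CPM to 133 and 143 (log2 0.62 ± 0.06) and 162 and 165 (log2 0.86 ± 0.06). The 3 cytokinesis genes, Prc1, Ect2 and Anln, had medians of 0.58 and 0.51.

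**Figure D2:**
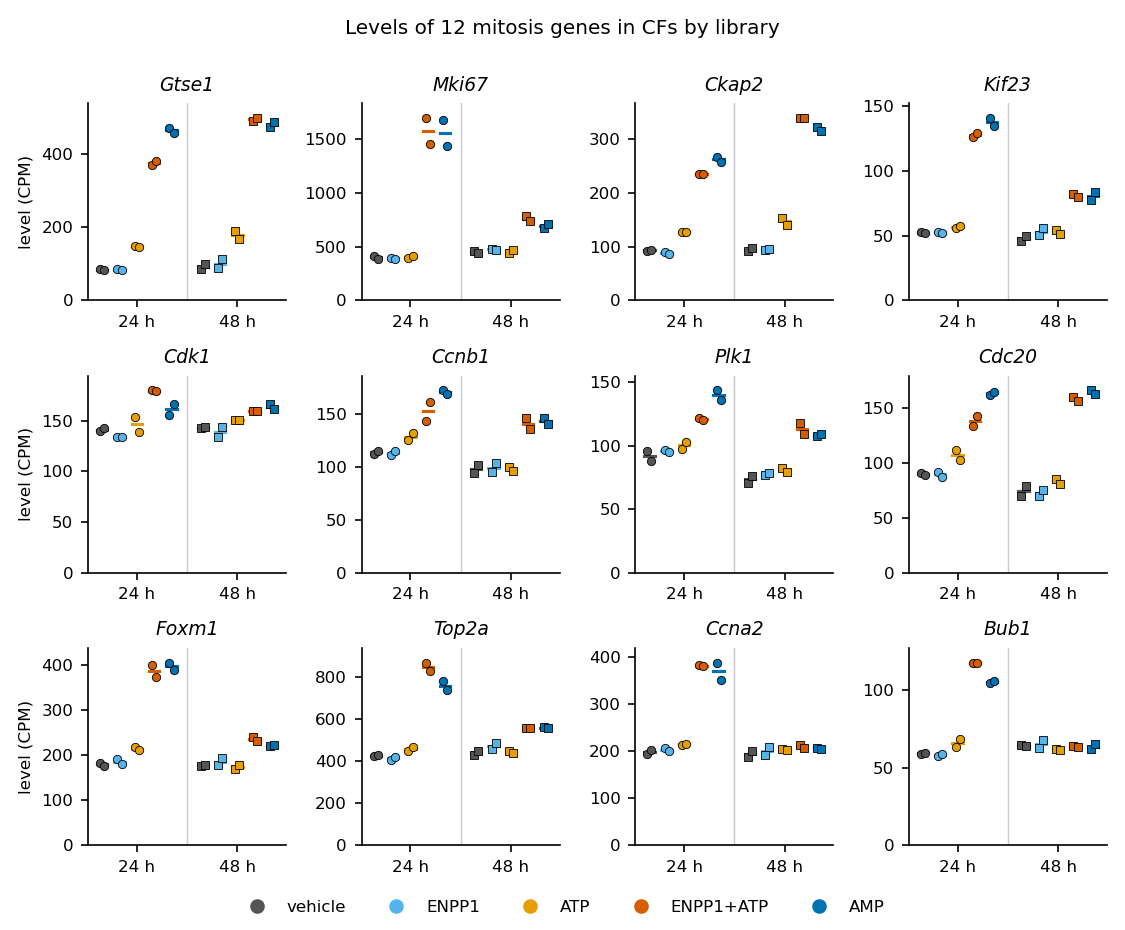
Levels (CPM, vertical axes from 0) of 12 mitosis genes in CFs at 24 h (circles) and 48 h (squares), with 1 point per library, 2 libraries per medium, and short lines at group means. At 24 h the ENPP1+ATP and AMP libraries lie above vehicle for every gene shown, and at 48 h Bub1 with these media lies at the vehicle level and Ccna2 close above it, while Gtse1, Ckap2 and Cdc20 stay high.

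ATP medium raised fewer genes. At 24 h 17 of 44 rose and none fell, where 11.1% of all genes tested were called and 4.77% rose. An unadjusted p under 0.05 was found for 27, all higher, and DESeq2 called 22. Gtse1 (0.81 ± 0.09) and Ckap2 (0.46 ± 0.05) moved most, followed by Cdc25b (0.35 ± 0.06) and Aurka (0.27 ± 0.07). Of the genes named above, Mki67 (0.00 ± 0.07), Top2a (0.10 ± 0.05), Cdk1 (0.05 ± 0.05), Kif11 (0.03 ± 0.04), Bub1b (0.05 ± 0.04), Aurkb (0.09 ± 0.05) and Plk1 (0.12 ± 0.05) did not pass, and Foxm1 (0.26 ± 0.05), Cdc20 (0.25 ± 0.06) and Ccnb1 (0.18 ± 0.06, edgeR adjusted p = 0.0498) did. The Ccnb1 call was lost without any 1 of the 4 libraries compared. The count was 5 without ATP replicate 1, 11 without ATP replicate 2 and 8 without either vehicle replicate. At 48 h 3 genes rose (7.83% of all genes called, 5.35% higher): Gtse1 (0.96 ± 0.09), Ckap2 (0.64 ± 0.05) and Cenpe (0.17 ± 0.05), the kinesin that moves chromosomes to the spindle equator. These 3 of 44 lie near the share over all genes, so their number is not a result about these genes.

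Few of the genes separated AMP from ENPP1+ATP medium. At 24 h 8 genes were higher with AMP, among them Aurka (0.34 ± 0.07), Gtse1 (0.31 ± 0.09), Ube2c (0.27 ± 0.06) and Cdc20 (0.24 ± 0.06), and Top2a was lower (-0.16 ± 0.05), where 6.25% of all genes were called, 2.6% higher and 3.65% lower. These 9 calls were 0 without ENPP1+ATP replicate 1, 5 without ENPP1+ATP replicate 2, 3 without AMP replicate 1 and 7 without AMP replicate 2. An unadjusted p under 0.05 was found for 19 at 24 h, 15 higher and 4 lower with AMP, and DESeq2 called 8 higher and 3 lower. At 48 h edgeR called none (0.162% of all genes), 6 had an unadjusted p under 0.05, of which 5 were lower with AMP, and DESeq2 called none.

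At 48 h, 39 of 44 genes rose with ENPP1+ATP (45.2% of all genes called, 20.8% higher), with a median of 0.51 (all genes tested -0.027), and 39 of 44 rose with AMP (44% called, 21.1% higher), with a median of 0.50 (all genes -0.027). The same 5 did not pass in either: Ccna2 (0.12 with ENPP1+ATP and 0.09 with AMP), Cdc25c (0.04 and 0.08), Cdca8 (0.08 and 0.05), Mad2l1 (0.07 and 0.02) and Bub1 (-0.01 and -0.01). Cyclin A, Ccna2, shows the pattern in single libraries: 194 and 202 CPM with vehicle and 382 and 379.6 with ENPP1+ATP at 24 h, then 186 and 199 with vehicle and 214 and 207 with ENPP1+ATP at 48 h. The kinase Bub1 did the same, with 58.7 and 59.8 CPM against 118 and 118 at 24 h and 64.5 and 63.9 against 64.1 and 63.2 at 48 h. Against ATP medium, ENPP1+ATP was higher for 39 genes at 48 h (39.5% of all genes called, 18.2% higher).

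The leading genes changed between the times. At 48 h the largest rises with ENPP1+ATP were those of Gtse1 (2.43 ± 0.09, 85 and 98.8 CPM with vehicle and 489.7 and 499 with ENPP1+ATP), Ckap2 (1.84 ± 0.05), Cenpe (1.30 ± 0.05) and Cdc20 (1.09 ± 0.06), with Ube2c, the ubiquitin-conjugating enzyme of anaphase, next (1.02 ± 0.06). With AMP they were Gtse1 (2.39 ± 0.09), Ckap2 (1.75 ± 0.05), Cenpe (1.21 ± 0.05) and Cdc20 (1.14 ± 0.06). Mki67 had come down to 781 and 738 CPM with ENPP1+ATP and 678 and 709 with AMP, against 457 and 442 with vehicle (log2 0.75 ± 0.07 and 0.62 ± 0.07). The other fixed genes had log2 changes, with ENPP1+ATP and AMP, of 0.52 and 0.55 for Ccnb1, 0.16 and 0.20 for Cdk1, 0.62 and 0.56 for Plk1, 0.36 and 0.31 for Aurkb, 0.49 and 0.37 for Bub1b, 0.35 and 0.36 for Top2a, 0.41 and 0.32 for Foxm1, and 0.24 and 0.16 for Kif11. All of these passed.

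The difference between the times was tested as an interaction, the effect at 48 h minus the effect at 24 h. For ENPP1+ATP it was lower at 48 h for 23 genes and higher for 5, where 30% of all genes were called, 15.1% higher and 14.9% lower. The effect shrank most for Mki67 (-1.21 ± 0.10), Bub1 (-1.0 ± 0.07), Ccna2 (-0.82 ± 0.07) and Melk (-0.80 ± 0.10). It grew for Ckap2 (0.51 ± 0.07), Ube2c (0.49 ± 0.09), Cdc20 (0.47 ± 0.08), Cenpe (0.35 ± 0.07) and Plk1 (0.22 ± 0.08). For AMP it was lower for 28 genes and higher for 3 (31.7% of all genes called, 17.3% higher and 14.4% lower), with Mki67 (-1.32 ± 0.10) and Melk (-0.88 ± 0.10) among the lower and Cdc20 (0.28 ± 0.08), Ckap2 (0.25 ± 0.07) and Ube2c (0.24 ± 0.09) the higher. For ATP 1 gene was called, Foxm1 (-0.30 ± 0.07, edgeR adjusted p = 0.0319; 1.16% of all genes), and for ENPP1 none (0% of all genes, 1 with an unadjusted p under 0.05, none by DESeq2). The Foxm1 call was lost without any single library of the 4 groups compared.

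**Figure D3:**
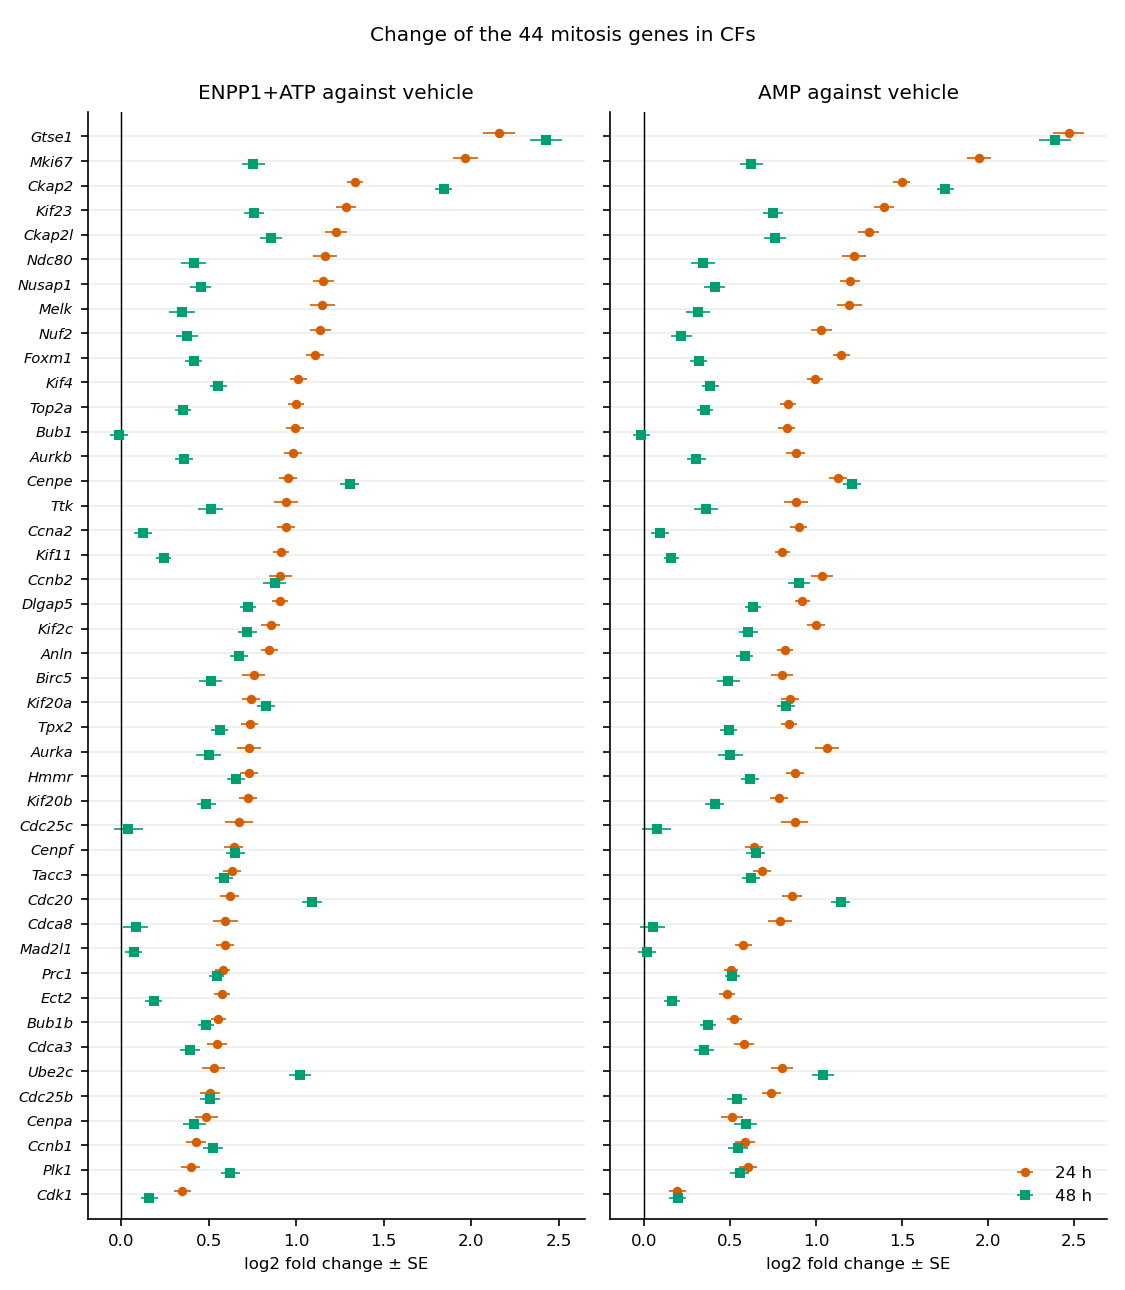
Log2 fold change against vehicle (horizontal axis, with standard errors as bars) of the 44 mitosis genes in CFs, for ENPP1+ATP (left) and AMP (right), at 24 h (circles) and 48 h (squares), ordered by the change with ENPP1+ATP at 24 h. All points at 24 h lie right of 0, from 0.19 to 2.47, and most points at 48 h lie nearer 0 than those at 24 h. With ENPP1+ATP, Gtse1, Ckap2, Cenpe, Kif20a, Cenpf, Cdc20, Ube2c, Ccnb1 and Plk1 lie farther from 0 at 48 h.

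Within a medium, 48 h against 24 h, 11 of 44 genes fell and none rose with vehicle (4.88% of all genes called, 1.68% higher and 3.2% lower), but leaving out 1 library brought this to 2 to 5: 4 and 5 without 24 h vehicle replicates 1 and 2, 2 and 5 without 48 h vehicle replicates 1 and 2. With ENPP1, 5 rose and 5 fell (7.95% called, 3.06% higher and 4.89% lower), a count of 4 and 3 without 24 h ENPP1 replicates 1 and 2 and of 6 without either 48 h ENPP1 replicate. With ATP, 24 fell and 2 rose, Gtse1 and Ckap2 (14.8% called, 8.34% higher and 6.44% lower). With ENPP1+ATP, 35 fell and 4 rose (40.7% called, 19.5% higher and 21.2% lower), the 4 being Ckap2, Gtse1, Cdc20 and Ube2c. With AMP, 38 fell and Ckap2 rose (43.1% called, 22.3% higher and 20.8% lower).

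Genes that control this programme were read beside it, with log2 changes given for ENPP1+ATP and then AMP. Cdkn1a, which encodes the CDK inhibitor p21, rose at both times (1.97 and 2.36 at 24 h and 2.30 and 2.35 at 48 h). Mybl2, which encodes the MuvB partner B-MYB, rose at 24 h and fell at 48 h (0.82 and 0.80 at 24 h and -0.25 and -0.28 at 48 h). E2f1, which drives S phase genes, rose at 24 h (0.55 and 0.44) and did not pass at 48 h (0.05 and -0.00). Lin9, a MuvB subunit, had changes of 0.57 and 0.47 at 24 h and 0.23 and 0.15 at 48 h, of which the last did not pass (edgeR adjusted p = 0.0602). Rbl1 and Rbl2, which encode p107 and p130, rose in all 4 comparisons (0.58 and 0.48 at 24 h and 0.24 and 0.28 at 48 h for Rbl1, 0.50 and 0.32 at 24 h and 0.47 and 0.36 at 48 h for Rbl2). Chek1, the checkpoint kinase, rose at 24 h (0.24 and 0.18), then was -0.09 with ENPP1+ATP, which did not pass, and -0.27 with AMP, which did. Wee1, the kinase that inhibits CDK1, passed only with AMP at 24 h (-0.16). Trp53, which encodes p53, rose in 3 of the 4 and stood at -0.00 with ENPP1+ATP at 24 h, where it did not pass.

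Of 68 other mitosis genes, such as condensins and further kinetochore subunits, 63 rose and 2 fell with ENPP1+ATP at 24 h (median 0.72) and 65 rose and 2 fell with AMP (0.74). At 48 h, 35 rose and 10 fell (0.16) and 32 rose and 10 fell (0.15). Of 54 S phase genes, 44 rose and 3 fell (0.52) and 40 rose and 6 fell (0.41) at 24 h, and 20 rose and 9 fell (0.10) and 15 rose and 8 fell (0.05) at 48 h. Of 25 p53 targets, 24 rose and 1 fell with each medium at 24 h (medians 1.12 and 1.30), and at 48 h 22 rose and 2 fell with ENPP1+ATP (1.55) and 21 rose and 2 fell with AMP (1.58). Mitosis and S phase medians were lower at 48 h than at 24 h and those of the p53 targets higher. Of 42 cell cycle regulators, 27 rose and 6 fell with ENPP1+ATP at 24 h (median 0.33), and 17 rose and 9 fell at 48 h (0.11).

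Markers of the cultured cells moved with these media. The summed level of 10 fibroblast markers was 7220 to 7625 CPM with vehicle at 24 h, 3611 to 3707 CPM with ENPP1+ATP and 2831 to 3055 CPM with AMP, and 8 of 10 fell with each medium while 1 rose. At 48 h it was 7128 to 7541, 3880 to 4096 and 4077 to 4362 CPM. The sum of 10 macrophage markers, of which 4 passed the filter on low counts and 0 to 3 were at 0 in a library, was 15.8 to 18.3 CPM with vehicle at 24 h, 34.5 to 42.3 CPM with ENPP1+ATP and 58.7 to 61.8 CPM with AMP. The part of these shifts in the mitosis genes was not tested.

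In NRVMs the genes moved in both directions. The summed level of the 43 genes was 1413 to 1456 CPM with vehicle, 1395 to 1463 CPM with ENPP1, 1544 to 1646 CPM with ATP, 1365 to 1427 CPM with ENPP1+ATP and 1679 to 1770.1 CPM with AMP. With ENPP1 edgeR called none (0% of all genes called, 2 members with an unadjusted p under 0.05, none by DESeq2). With ATP 14 rose and 9 fell, where 59.9% of all genes tested were called, 30.2% higher and 29.7% lower. With ENPP1+ATP 7 rose and 17 fell (56% called, 28.6% higher and 27.4% lower), and with AMP 19 rose and 5 fell (57.2% called, 29.2% higher and 28% lower). Counted in either direction (23, 24 and 24 of 43), the calls were no more frequent than among all genes, so their number is not a result about these genes. The median log2 fold change of the 43 genes was -0.02 with ATP, -0.14 with ENPP1+ATP and 0.08 with AMP, against 0.0064, 0.0079 and 0.0088 over all genes tested. The 3 comparisons share the 3 vehicle libraries.

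Gtse1 rose with all 3 media. It stood at 33.9, 38.1 and 36.7 CPM with vehicle, 121, 121 and 117 with ATP, 98.1, 95.8 and 99.3 with ENPP1+ATP and 115, 122 and 119.96 with AMP (log2 1.72 ± 0.05, 1.43 ± 0.05 and 1.71 ± 0.05, edgeR adjusted p at most 1.72e-25). No treated library overlapped vehicle. Ckap2 had log2 changes of 0.69 ± 0.07, 0.22 ± 0.08 and 0.61 ± 0.07, and Aurkb of 0.56 ± 0.07, 0.43 ± 0.07 and 0.68 ± 0.07. The next rises by size were those of Melk (0.59 ± 0.11), Kif23 (0.59 ± 0.06) and Anln (0.56 ± 0.07) with ATP, and those of Melk (0.63 ± 0.11), Nusap1 (0.61 ± 0.08), Foxm1 and Mki67 with AMP. With ENPP1+ATP the rises beside Gtse1 and Aurkb were Nusap1 (0.27), Foxm1 (0.26), Ckap2l (0.23), Ckap2 and Mki67 (0.21).

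Ccnb1, Plk1, Ube2c, Kif4 and Cdc20 fell with all 3 media. Ccnb1 stood at 23.4, 24.2 and 22.8 CPM with vehicle, 12.2, 13.4 and 14.6 with ATP, 12.7, 12.5 and 14.5 with ENPP1+ATP and 13.7, 16.7 and 16.6 with AMP (log2 -0.81 ± 0.10, -0.82 ± 0.10 and -0.58 ± 0.10), with every treated library below every vehicle library. Plk1 stood at 34, 33.5 and 33 CPM with vehicle, 21.1, 22.4 and 23 with ATP, 21, 22.2 and 18.5 with ENPP1+ATP and 22.6, 20.1 and 25.2 with AMP (log2 -0.60 ± 0.08, -0.71 ± 0.08 and -0.57 ± 0.08). Ube2c (-0.65, -0.64 and -0.46), Kif4 (-0.49, -0.59 and -0.39), a chromosome-arm kinesin, and Cdc20 (-0.36, -0.40 and -0.27) fell as well. No other member fell with AMP, and the other cyclins and kinases did not all follow. Cdca3, grouped here with Ube2c and Cdc20, rose with AMP (0.47 ± 0.08). With ATP Bub1b (-0.23), Cenpf (-0.31), Cenpe (-0.19) and Kif20a (-0.22) also fell. In CFs at 24 h the same 5 genes rose with ENPP1+ATP and AMP, and the difference between the 2 cell types, which come from separate tables and species, was not tested. Every CF library at 24 h lay above every vehicle library and every NRVM library below for 9 genes with ATP, 19 with ENPP1+ATP and 5 with AMP, of which 5, 15 and 5 passed the test in both cell types. Among all genes tested, 26.6%, 37.3% and 36.4% lay above vehicle in this way in CFs and 32.3%, 30.5% and 30.2% below it in NRVMs. Both held for 6.94%, 8.39% and 8.09% of the 10946 genes tested in both tables under the same symbol, so the 5 of 43 with AMP lie near the background.

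The remaining fixed genes were mixed. Cdk1 did not pass with ATP (-0.03) or AMP (-0.03) and fell with ENPP1+ATP (-0.23). Top2a did not pass with ATP (-0.03), fell with ENPP1+ATP (-0.18) and rose with AMP (0.33). Kif11 passed in none (-0.05, -0.14 and 0.01). Mki67 (0.31, 0.21 and 0.54) and Foxm1 (0.39, 0.26 and 0.57) rose in all 3. Against ATP, ENPP1+ATP was lower for 17 genes and higher for none (27.5% of all genes called, 13.5% lower), led by Anln (-0.57 ± 0.07), the cytokinesis scaffold, a count of 10 without ATP replicate 2 or without ENPP1+ATP replicate 1. Against ENPP1+ATP, AMP was higher for 23 genes and lower for none, where 9.66% of all genes were called and 5.81% were higher, led by Melk (0.55 ± 0.11), Top2a (0.51 ± 0.06), Kif20a (0.42 ± 0.06) and Nuf2 (0.40 ± 0.10).

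**Figure D4:**
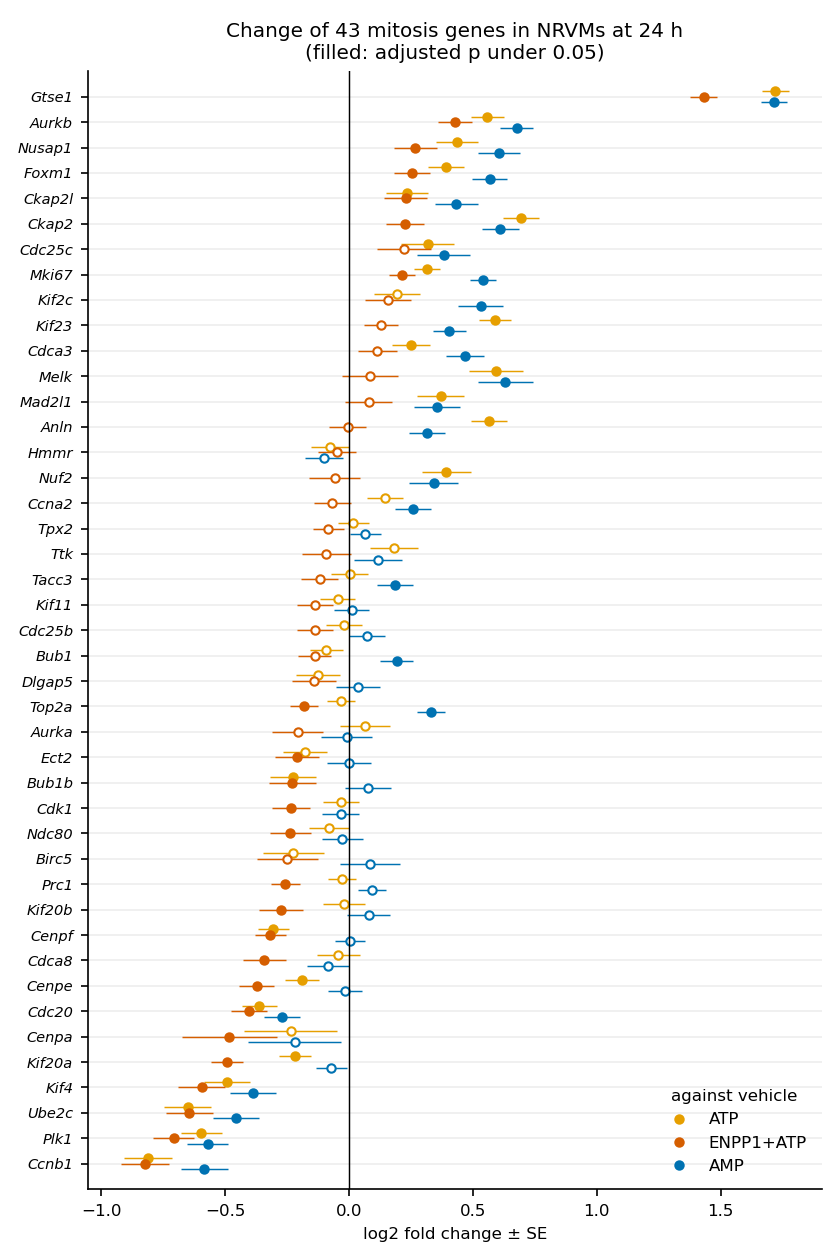
Log2 fold change against vehicle (horizontal axis, with standard errors) of 43 mitosis genes in NRVMs at 24 h with ATP, ENPP1+ATP and AMP (3 libraries per medium), ordered by the change with ENPP1+ATP. Filled points have an adjusted p under 0.05. Gtse1 lies between 1.43 and 1.72 at the top, and Ccnb1, Plk1, Ube2c, Kif4 and Cdc20 lie left of 0 with all 3 media.

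In NRVMs Cdkn1a rose with ATP, ENPP1+ATP and AMP (log2 1.34, 1.04 and 1.21) and Lin9 did too (1.11, 1.00 and 0.87), while Chek1 (-0.71, -0.77 and -0.72) and Trp53 (-0.64, -0.63 and -0.66) fell. Rbl1 rose with all 3 (0.63, 0.29 and 0.57) and Mybl2 with ATP and AMP (0.48 and 0.54, against 0.09 with ENPP1+ATP, which did not pass). Rbl2 passed with ENPP1+ATP alone (0.02, 0.19 and 0.09) and Wee1 with AMP alone (0.11, 0.08 and 0.33), and E2f1 was not analysed there. Of 54 S phase genes, 41 rose and 3 fell with ATP, 27 rose and 5 fell with ENPP1+ATP, and 44 rose and 3 fell with AMP. Of 66 other mitosis genes, 25 rose and 11 fell with ATP, 9 rose and 20 fell with ENPP1+ATP, and 29 rose and 6 fell with AMP. Of 22 p53 targets, 16, 14 and 14 rose and 0, 5 and 4 fell. The culture held fibroblast markers as well: their sum (9 genes) was 24942 to 26324 CPM with vehicle, 10552 to 11893 CPM with ATP, 8451 to 8914 CPM with ENPP1+ATP and 11730 to 12525 CPM with AMP. The sum of 11 cardiomyocyte markers was 46673 to 49184, 25818 to 27790, 39091 to 40984 and 45504 to 48676 CPM. Which cells of these cultures held the mitosis transcripts was not tested.

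In single nonmyocytes there was 1 library per genotype, so no difference was tested, and 95% limits (exact Poisson for levels, exact binomial for shares) cover counting error only. After filters on genes, mitochondrial counts and doublets, 7252 ENPP1CKO and 5236 control cells remained, in 14 clusters built without cell cycle genes, and 68 barcodes were shared by both libraries (1.27% of the smaller). The deleted gene, Enpp1, checks the labels: among fibroblast-like cells it stood at 28.7 CPM with ENPP1CKO (a count in 10.2% of cells) and 129 CPM in the control (41.2%). Over all cells the mitosis genes summed to 284 CPM [278, 290] in the ENPP1CKO library and 446 CPM [437, 455] in the control library. All 44 had counts in both. The 5 with the highest summed levels were Cenpa (37.4 against 57.6 CPM), Top2a (19.9 against 28.7 CPM), Birc5 (17 against 30.7 CPM), Ube2c (12.6 against 26.7 CPM) and Cdk1 (15 against 21.3 CPM). At a 1.5-fold limit 24 of 44 were lower in the ENPP1CKO library, where 9.7% of all genes with enough counts were, and none was higher.

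Fibroblast-like cells held a large gap between the libraries (3721 ENPP1CKO and 1868 control cells). Their summed level was 191 CPM [184, 197] in the ENPP1CKO library and 432 CPM [419, 445] in the control library (log2 ratio -1.18 [-1.25, -1.11]). Of 43 genes with at least 20 counts over both libraries, 40 were lower by at least 1.5-fold, where 7.79% of all genes were, and none was higher, with a median log2 ratio of -1.17 (range -2.24 to -0.48) against 0.01 over all genes. Ccnb1 was at 3.21 against 12.6 CPM (log2 -1.97 [-2.46, -1.5]), Cdc20 at 4.23 against 16.5 CPM (-1.96 [-2.38, -1.55]), Plk1 at 1.21 against 4.57 CPM (-1.92 [-2.75, -1.14]) and Ube2c at 8.47 against 26.6 CPM (-1.65 [-1.95, -1.35]). The passenger protein survivin, Birc5, was at 10.4 against 25.9 CPM (-1.32) and Cenpa at 21.7 against 50.3 CPM (-1.22). Cdk1 (15 against 24.6 CPM, -0.71), Mki67 (4.66 against 8.48 CPM, -0.86), Top2a (7.92 against 16.8 CPM, -1.08), Kif11 (0.786 against 1.81 CPM, -1.20), Aurkb (1.15 against 3.34 CPM, -1.54) and Bub1b (1.21 against 2.38 CPM, -0.98) were lower too. Foxm1, with 8 and 9 counts, and Gtse1, with 14 and 20, rest on few counts.

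Cells with at least 5 different mitosis genes made up 1.29% of fibroblast-like cells in the ENPP1CKO library (48 cells, [0.953, 1.71]) and 3.69% in the control library (69 cells, [2.89, 4.65]). They held 72% and 85.1% of the mitosis gene counts of this class. With each cell thinned to 2000 counts, which left out 424 and 157 shallower cells, the shares were 0.910% and 2.75%. Over all cell types, the 140 ENPP1CKO and 166 control cells past this limit held 72.1% and 79.6% of all mitosis gene counts, and their median depth was 5350.5 and 6876.5 counts against 3341 and 3625 in other cells. In neutrophil-like cells, which should not divide, 0 of 34 and 0 of 168 passed (exact upper limits 10.3% and 2.17%) at median depths of 1096.5 and 996 counts, yet their summed level was 146 and 137 CPM. These levels, with limits of [58.6, 300] and [96.6, 189], rest on 7 and 37 counts, of which 4 and 19 were of Cenpa.

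The largest fibroblast-like cluster was a different one in each library, cluster 2 in ENPP1CKO and cluster 1 in the control. Cluster 1, led by Sfrp2 and Col11a1, held 1024 ENPP1CKO and 1165 control cells, at 293 CPM and 545 CPM, with shares of 1.95% and 5.32% past 5 genes. Cluster 2, led by Thbs4 and Cilp, held 1784 and 269 cells, at 175 CPM and 333 CPM, with shares of 1.51% [1.00, 2.19] and 2.23% [0.823, 4.79], which overlap. Cluster 3, led by Clec3b, held 913 and 434 cells, at 78.3 CPM [69.3, 88.2] and 68.6 CPM [57.3, 81.4]. The control value lay below the limits for neutrophil-like cells [96.6, 189], and the ENPP1CKO value lay within them [58.6, 300]. The level was lower in the ENPP1CKO library within clusters 1 and 2. Fibroblast-like cells past 5 mitosis genes kept fibroblast markers at 32581 CPM (ENPP1CKO) and 32988 CPM (control), against 45424 and 43135 CPM in the others.

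As whole classes, macrophage-like and endothelial-like cells showed no such gap in summed level, while T or NK-like and epicardial or mesothelial-like cells did. The share past 5 genes differed by -4.20 points [-10.8, 1.79] in T or NK-like and -9.48 points [-16.3, 6.05] in epicardial or mesothelial-like cells, intervals that include 0. Enpp1 stood at 13.1 and 3.73 CPM (4 counts and 1) in the former and 38.3 and 37.8 CPM in the latter, ENPP1CKO first. In macrophage-like cells (2061 and 2496) the sums were 384 and 369 CPM (log2 ratio 0.06 [-0.02, 0.13]), none of 41 genes was lower by 1.5-fold (14.3% of all genes were) and 2 were higher (4.26%), and the share past 5 genes was 2.57% and 2.40%, or 2.09% and 2.26% with cells thinned to 2000 counts. Within them cluster 6 held 57 ENPP1CKO and 825 control cells, at 1178 and 278 CPM. In endothelial-like cells (946 and 187) the sums were 521 and 460 CPM (0.18 [-0.03, 0.39]), 9 of 23 genes were higher (14.6%) and 2 lower (13.2%), and the shares were 2.43% and 2.67% from 23 and 5 cells. The endothelial-like clusters differed in direction. Cluster 5, led by Cdh5 and Gpihbp1, held 883 and 161 cells, at 444 CPM [412, 478] and 208 CPM [169, 254]. Its shares past 5 genes were 2.15% and 2.48%. Cluster 12, led by Ccl21a and Nts, held 63 and 26 cells, at 1258 CPM [1093, 1442] and 2017 CPM [1707, 2367]. Thinning moved the endothelial-like log2 ratio to 0.97 and the shares to 4.29% and 1.75%, with 643 and 73 cells left out. T or NK-like cells (173 and 136) stood at 1072 and 2001 CPM (log2 ratio -0.90 [-1.10, -0.70]), with 10 of 16 genes lower (17.8% of all genes) and 8 and 12 cells past 5 genes. Epicardial or mesothelial-like cells had 4 mitosis gene counts in 23 ENPP1CKO cells and 1045 in 116 control cells. In smooth muscle or pericyte-like cells the sum was higher in the ENPP1CKO library, 515 and 215 CPM (log2 ratio 1.26 [0.85, 1.68]), from 195 counts in 152 cells and 68 in 74, while 2 and 3 cells were past 5 genes, which held 82.1% and 70.6% of those counts. The few cardiomyocyte-like cells (27 and 11) stood at 159 and 899 CPM (log2 ratio -2.50 [-4.30, -0.98]). Cells of unnamed clusters (115 and 180) stood at 543 and 429 CPM (0.34 [0.08, 0.60]).

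**Figure D5:**
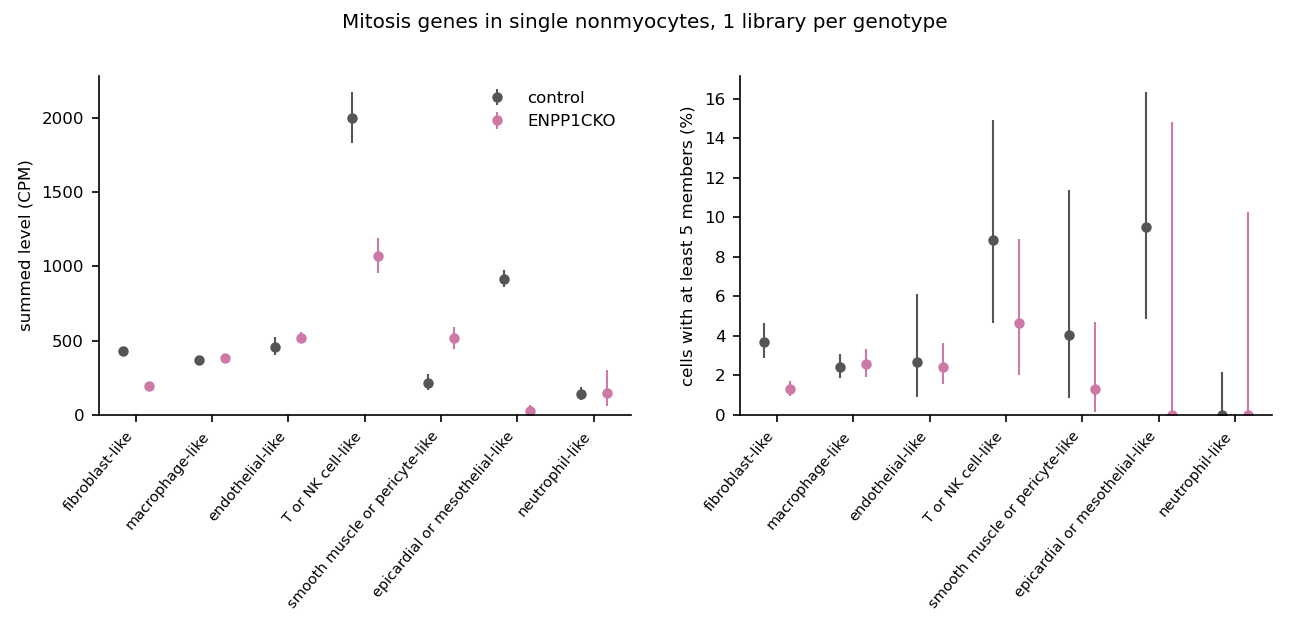
Mitosis genes in single nonmyocytes at day 7 after infarction by cell class, in the control and the ENPP1CKO library. Left, summed level (CPM) with exact Poisson limits; right, share of cells (%) with at least 5 different mitosis genes with exact binomial limits, both for counting error only. In fibroblast-like cells the ENPP1CKO level (191 CPM) lies below the control level (432 CPM), and in macrophage-like cells the levels (384 and 369 CPM) are close.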

How the data were processed

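RNA-seq was measured in 20 CF and 15 NRVM libraries and in 2 single-cell libraries. The authors deposited raw counts per gene for the bulk samples and raw molecule counts for each cell of the single-cell libraries. Their processing notes name STAR 2.5.3a, Cell Ranger and the builds mm10 and rn6, with no filters or counting tool given in the sources used here. No count model for these tables is given in the sources used here. The gene list, its 11 roles, the other lists and the markers were chosen with earlier results of these data known.

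Counts were tested with edgeR 4.0.16 (R 4.3.3; filterByExpr, TMM, robust quasi-likelihood fit, Benjamini-Hochberg over all genes tested, threshold 0.05), 1 fit over all CF libraries and 1 over all NRVM libraries. Genes named in the text are 10 fixed ones (Ccnb1, Cdk1, Plk1, Aurkb, Bub1b, Cdc20, Top2a, Mki67, Foxm1 and Kif11), up to 4 largest rises and falls per medium, those called against the majority, the 5 highest in single cells, and 9 regulators. Others, such as those without a call at 48 h, were chosen after their values were seen.

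Single cells (scanpy 1.11.5) were kept from 200 detected genes upward and up to 20% of mitochondrial counts, Scrublet doublets (154 and 73, of 7460 and 5347 barcodes) were removed, and cells were clustered on 2000 variable genes, 30 components, 15 neighbours and resolution 0.5, with 206 cell cycle genes left out. Clusters were named from marker lists, and rebuilt names may differ from the study's. The per-cell limit of 5 genes is a range and not a cell type. The alternatives tried were DESeq2 1.42.0, other size factors, no filter on low counts, a replicate block, only the groups compared, each library left out, and other filters, resolutions, depths and limits for the single cells. The tests were run on simulated data first.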

Additional observations from a re-analysis of the deposited data

Results flagged for a closer look

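In CFs the effect of a medium differed between 24 h and 48 h by the interaction test (edgeR, adjusted p under 0.05) for 28 mitosis genes with ENPP1+ATP, 31 with AMP and 1 with ATP, where 30%, 31.7% and 1.16% of all genes tested were called. With ENPP1+ATP the log2 effect at 48 h minus that at 24 h was -1.21 for Mki67, -0.69 for Foxm1, -0.67 for Kif11, -0.65 for Top2a, -0.62 for Aurkb, -0.53 for Kif23 and -0.19 for Cdk1. It was 0.51 for Ckap2, 0.49 for Ube2c, 0.47 for Cdc20, 0.35 for Cenpe and 0.22 for Plk1. With AMP it was -1.32 for Mki67, -0.83 for Foxm1, -0.64 for both Kif11 and Kif23, -0.58 for Aurkb and -0.48 for Top2a, and 0.28 for Cdc20, 0.25 for Ckap2 and 0.24 for Ube2c. With ATP it was -0.30 for Foxm1, a call that was lost without any single library of the 4 groups compared.

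In CFs at 24 h and in NRVMs, libraries lay on opposite sides of vehicle for some genes. Every CF library lay above vehicle and every NRVM library below it for 9 genes with ATP, 19 with ENPP1+ATP and 5 with AMP, where 6.94%, 8.39% and 8.09% of the genes tested in both tables did so. Of these, 5, 15 and 5 passed the test in both cell types, and the 5 of 43 with AMP lie near the background. The difference between the 2 cell types was not tested.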

How the results depend on the processing

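No value that passed a test changed direction under any alternative tried. Untested shares and differences near 0 did: the share difference (ENPP1CKO minus control) in endothelial-like cells went from -0.24 to 2.54 points with thinning to 2000 counts, 0.19 with a limit of 8 genes and 0.09 with the stricter cell filter, and that in macrophage-like cells from 0.17 to -0.17, -0.03 (8 genes) and -0.39 (3 genes). Leaving out 1 library gave 5 to 11 calls in place of 17 for ATP at 24 h in CFs, 0 to 7 in place of 9 for AMP against ENPP1+ATP at 24 h, 2 to 5 in place of 11 for vehicle with time, 3 to 6 in place of 10 for ENPP1 with time, 0 in place of 1 for the ATP interaction and 10 to 15 in place of 17 for ENPP1+ATP against ATP in NRVMs. In those fits a lone library is assumed to vary like the other groups. With only the groups compared, vehicle with time gave 18 calls and the ATP interaction 4, and DESeq2 gave 2 for the latter. The replicate block gave 2 calls for the ATP interaction and moved no other count by over 1.5 times. Replicate numbers did not pair the samples in NRVMs, where 1 of 30 same-numbered pairs correlated above 0.1 and 4 of 15 libraries correlated best with their own number. In CFs 6 of 90 such pairs correlated above 0.1, but 16 of 20 libraries correlated best with their own number. With 2 libraries per group, the deviations from the group mean mirror each other, so these counts are not of independent outcomes. A weak pairing may be present there, and these counts cannot decide it. In single cells, thinning to 2000 counts gave a log2 ratio of -0.48 over all cells and 0.97 in endothelial-like cells. A limit of 3 genes per cell gave share differences of -2.04 points over all cells and -3.45 points in fibroblast-like cells. The causes were not tested. Small classes and members with few counts are limited by depth.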
